A study of Homo sapiens with 6 samples.

Results

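The mitochondrial ribosomal protein (MRP) genes were taken as the protein-coding genes whose symbol starts with MRPL or MRPS followed by a digit, and 78 of the 58302 genes in the deposited table met this rule. The libraries were made from MDA-MB-231-DR, a derivative of the breast cancer line MDA-MB-231 (triple-negative) that resists doxorubicin and that the study kept in medium with a low dose of doxorubicin. The 3 control libraries carry no further agent in their labels, and the other 3 come from cells treated with cyperotundone (CYT), a compound from sedge. The CYT dose and time behind these libraries are not given in the sources used here. All 6 libraries come from 1 cell line. The study's statistics section speaks in general of 3 independent experiments per group, without naming the sequencing. Beyond this and the labels, nothing says that the libraries came from separate cultures. The p-values therefore measure only the spread between these libraries. With 3 libraries against 3, an exact two-sided permutation test of a single value cannot give a p under 0.1.

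Mitochondria carry their own ribosome, which makes the few respiratory chain proteins encoded in mitochondrial DNA. Its rRNAs are transcribed in the mitochondrion, while its proteins are encoded in the nucleus, made in the cytosol and imported. The large subunit joins amino acids and releases the chain through an exit tunnel at the inner membrane, and the small subunit reads the mRNA. Some of the proteins have bacterial counterparts and others are found only in mitochondrial ribosomes.

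The total counts were 17357053, 17770102 and 14050849 in controls 1 to 3 and 14106017, 13056270 and 13423683 in CYT libraries 1 to 3. Library 2 of the CYT group stood apart from the others of its group, with correlations across genes of log2 CPM (counts scaled to a library total of 1000000) of 0.905 with CYT 1 and 0.904 with CYT 3, against 0.970 between CYT 1 and CYT 3. Control 2 correlated with controls 1 and 3 at 0.953 and 0.960, against 0.971 between controls 1 and 3. Results are therefore also given without both libraries numbered 2, a choice made after seeing the data.

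The markers of the line were checked first. VIM, a mesenchymal intermediate filament gene, had 2259, 2375 and 2742 CPM in controls and 959, 1119 and 911 CPM in CYT libraries. It was high in every library, and all CYT values were below all control values. The summed level of the 5 line markers was 4774, 4463 and 4865 CPM in controls and 2295, 2281 and 2414 CPM after CYT. Of these, VIM and AXL passed the test as lower, and AXL missed it when any 1 library was left out (adjusted p from 0.0509 to 0.131). With all libraries, AXL also missed it with upper-quartile normalization (0.0786) and without a filter (0.0670). At a mean of at least 5 CPM it had 0.0719, and with protein-coding genes only 0.0641. Of the 6 genes that the line should lack or hold at a low level, ERBB2 was the most abundant, between 16.8 and 82.3 CPM, GATA3 lay between 2.47 and 4.95 CPM, and ESR1, PGR, EPCAM and CDH1 stayed at or under 1.14 CPM. Among markers of other cell types, CD3E and DCN had 0 counts in all libraries, the endothelial genes summed to at most 3.50 CPM, and the erythroid genes to at most 0.282 CPM. The 4 leukocyte markers summed to 24.1, 8.89 and 7.84 CPM in controls and 18.5, 7.69 and 11 CPM after CYT. In controls most of this was CD68, while CD14 rose from 0.620, 0.213 and 1.37 CPM to 3.60, 4.2 and 3.89 CPM (log2 fold change 2.43, adjusted p = 0.0157, or 0.0634 without control 1). The 4 fibroblast genes summed to 19.6, 11.7 and 13.8 CPM in controls and 4.37, 3.49 and 2.78 CPM after CYT, nearly all from COL1A1, which fell (-2.16, adjusted p = 0.00264), with COL1A2 at 0 in every control.

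The comparison asked which MRP genes differ between CYT-treated and control cells. All 78 genes passed the filter on low counts. After CYT, 18 of them fell and 1 rose, at an adjusted p under 0.05 (quasi-likelihood test of edgeR, p adjusted by Benjamini-Hochberg). Over all 15572 genes tested, 28.6% were called in either direction, 12.9% lower and 15.7% higher. Among the 78 MRP genes 23.1% were called lower and 1.28% higher. The median log2 fold change of the MRP genes was -0.41, with 52 genes below 0 and 26 above, and that of all genes tested was 0.0064. In 28 MRP genes all 3 CYT libraries lay below all controls (35.9%, against 22.7% of all genes), and in 10 they lay above (12.8% against 23.4%).

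With the replicate number as a block, 34 MRP genes (43.6%) were called lower and 4 higher, against 19.8% and 20% of all genes, and the 34 included all 18 genes above. Without both libraries numbered 2, 31 were called lower and 5 higher, against 19.6% and 21.5% of all genes, again with all 18 included. The number called lower was 11 without control 1, without control 3 and without CYT 1, where 7.41%, 7.36% and 8.48% of all genes were called lower, and the 1 higher call was lost in these 3 fits. It was 12 without CYT 3 (7.63% of all genes), 16 without control 2 (10.2%) and 24 without CYT 2 (17%), so the count moved with that of all genes. The direction of the median held under each normalization tried. Upper-quartile normalization moved the median of all genes to 0.16 and that of the MRP genes to -0.26. Without a filter these medians were 0.41 and -0.48.

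**Figure D1:**
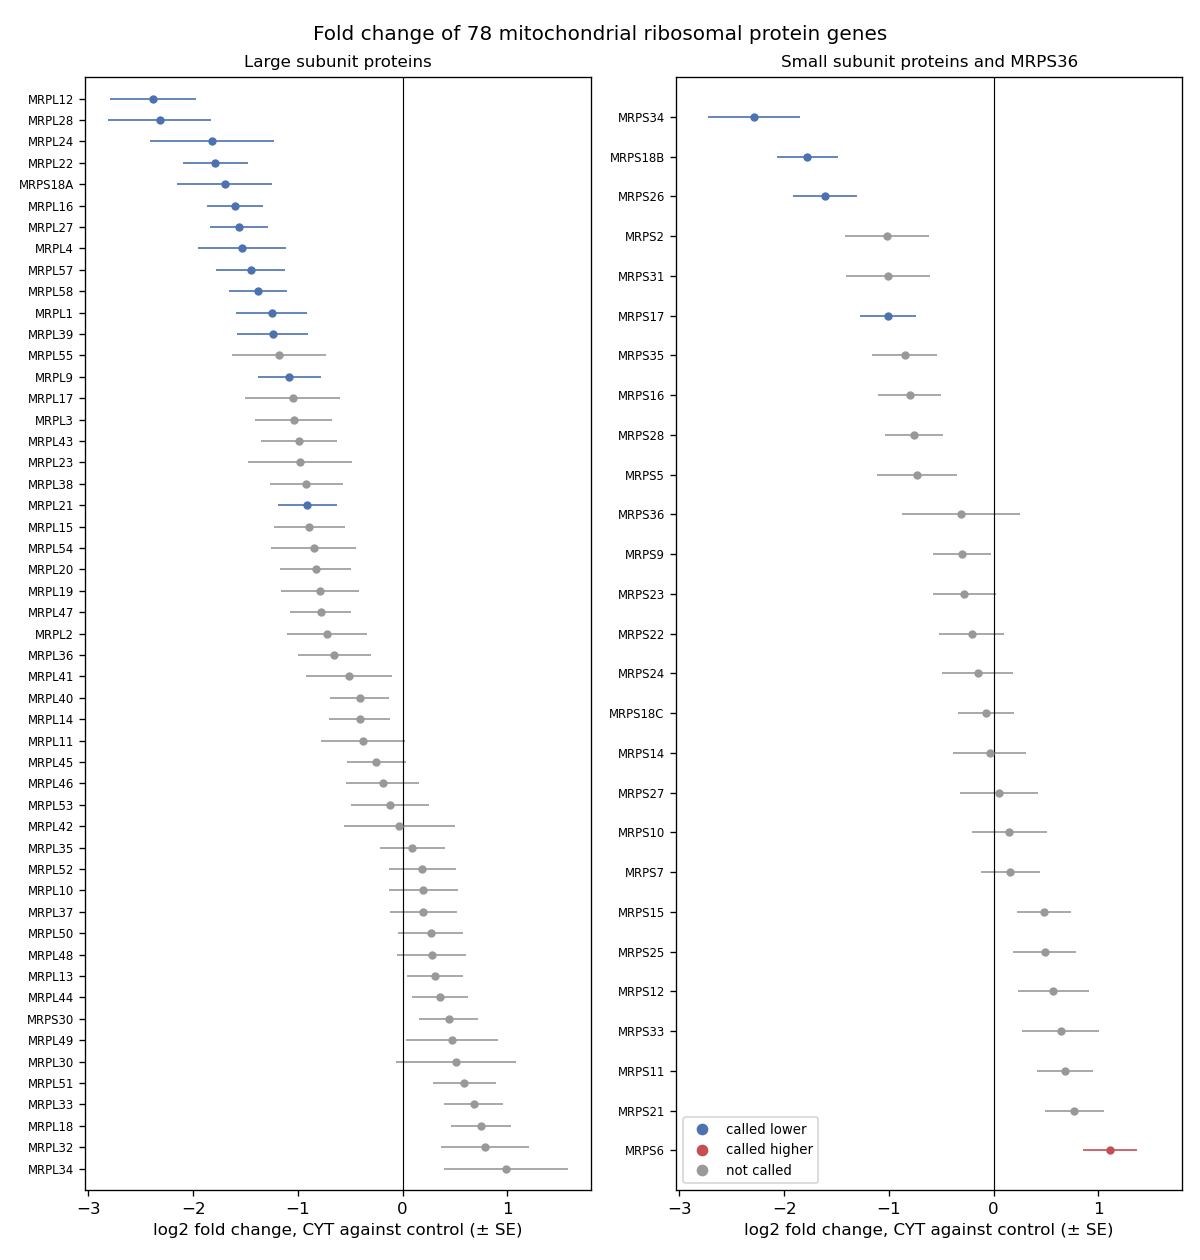
Each point is the log2 fold change of 1 MRP gene after CYT, with its standard error, for the large subunit on the left and the small subunit with MRPS36 on the right. Blue points were called lower and the red point higher. Values run from -2.38 for MRPL12 to 1.11 for MRPS6.

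The promoters of the 3 called members with the smallest adjusted p are shown, and all 3 genes fell. The sequences come from RefSeq on GRCh38.p14, each from 250 bases before to 50 bases after the start. Capitals mark 3 motifs that were searched on both strands: the NRF1 core GCGCATGC, the ETS core CCGGAAG and the YY1 core AAGATGGC. The windows are chr6:30617590-30617889 on the plus strand for MRPS18B, chr11:59810729-59811028 on the minus strand for MRPL16 and chr17:81703117-81703416 on the plus strand for MRPL12.
MRPS18B: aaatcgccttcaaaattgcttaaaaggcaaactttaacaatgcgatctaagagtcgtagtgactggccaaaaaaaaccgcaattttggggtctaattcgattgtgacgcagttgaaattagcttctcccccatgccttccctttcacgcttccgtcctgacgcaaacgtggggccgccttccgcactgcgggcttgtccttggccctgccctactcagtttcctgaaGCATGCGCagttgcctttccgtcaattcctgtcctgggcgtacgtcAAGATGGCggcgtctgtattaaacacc
MRPL16: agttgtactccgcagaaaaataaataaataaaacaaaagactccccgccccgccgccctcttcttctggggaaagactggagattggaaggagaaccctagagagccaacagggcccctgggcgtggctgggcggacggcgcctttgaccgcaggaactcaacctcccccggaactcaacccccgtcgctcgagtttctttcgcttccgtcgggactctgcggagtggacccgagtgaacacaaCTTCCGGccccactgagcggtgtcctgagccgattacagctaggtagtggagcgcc
MRPL12: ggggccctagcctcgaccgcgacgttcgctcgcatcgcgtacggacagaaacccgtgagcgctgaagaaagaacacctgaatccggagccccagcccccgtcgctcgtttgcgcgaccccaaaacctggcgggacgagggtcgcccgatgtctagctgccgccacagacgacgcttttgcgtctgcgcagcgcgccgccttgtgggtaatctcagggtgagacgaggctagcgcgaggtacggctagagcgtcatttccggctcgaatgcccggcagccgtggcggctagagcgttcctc
In MRPS18B an NRF1 core lay at -23 on the reverse strand and a YY1 core at 24 on the gene's strand, counted from 1 at the start. MRPL16 held an ETS core at -6 on the reverse strand. None of these letters, nor the E-box CACGTG, was in the MRPL12 window. A match is a run of letters, and binding was not measured.

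Of the 78 MRP genes, 69 matched the promoter table by symbol, with 85 windows. MRPL10, MRPL13, MRPL15, MRPL2, MRPL21, MRPL23, MRPL35, MRPS28 and MRPS36 did not match. An ETS core was in 38.8% of the MRP windows and in 10.3% of all 35116 windows. A YY1 core was in 27.1% against 2.89%, an NRF1 core in 7.06% against 3.05%, and an E-box in 10.6% against 7.26%. Any of the first 3 was in 55.3% of MRP windows and 14.9% of all. Among the 17 matched genes called lower, 7 had an ETS core, 3 a YY1 core and 2 an NRF1 core, and among the remaining 52 matched genes 23, 18 and 4 did.

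MRPL12 lies in the stalk of the large subunit, which recruits translation factors, and its protein also binds the mitochondrial RNA polymerase. It had 361, 263 and 322 CPM in controls and 70.7, 29 and 81.8 CPM in CYT libraries. The highest CYT value was far below the lowest control, and CYT 2 was the lowest of all. Its log2 fold change was -2.38 (SE 0.41, adjusted p = 0.00296), a fold of 5.21 between control and CYT. In controls MRPL12 also had the highest deposited level per length of all 78 genes, with 302 ± 29.1 FPKM in controls and 58.1 ± 24.1 FPKM after CYT (SD, n = 3 libraries). The other 4 stalk genes tested, MRPL10, MRPL11, MRPL53 and MRPL54, ran from -0.85 to 0.20 and were not called. After the correction for GC content and length described further on, MRPL54 was called lower (-0.84, adjusted p = 0.0314).

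Proteins around the exit tunnel formed the group with the lowest median among the positions described, -1.01 over 8 genes, of which 3 fell (37.5%, against 12.9% of all genes). MRPL22, the counterpart of a bacterial tunnel protein, had 57.5, 38.8 and 59.1 CPM in controls and 16.6, 13 and 15.2 CPM after CYT. The 3 CYT libraries lay close together and below every control, with a log2 fold change of -1.79 (SE 0.31, adjusted p = 0.00304). MRPL24, which sits at the tunnel rim, had 61.4, 18.7 and 96.3 CPM in controls and 21.6, 7.76 and 20.7 CPM after CYT. Here control 2 lay inside the CYT range, so the groups overlapped, and MRPL24 was the 1 called MRP gene of which this was true. Its call (log2 fold change -1.82, SE 0.59, adjusted p = 0.0442) was lost without control 1 (0.0977), control 3 (0.168), CYT 1 (0.0691), CYT 2 (0.0670) and CYT 3 (0.0879). It was also lost with upper-quartile normalization, with 2 other filters and in both limma fits. MRPL39, a mitochondria-specific protein of the large subunit, had 19.5, 26.7 and 23.5 CPM in controls and 9.52, 13 and 6.91 CPM after CYT, without overlap (-1.24, SE 0.34, adjusted p = 0.0239). Its adjusted p was 0.0592 without control 2, 0.0700 without control 3, 0.0736 without CYT 1 and 0.0896 without CYT 3. The other tunnel genes were not called in the main fit. MRPL17, MRPL23 and MRPL47 were called lower after the correction for GC content and length described further on (adjusted p = 0.0367, 0.0434 and 0.0140). They were also called lower with the replicate block, but not without both libraries numbered 2 (0.0770, 0.0822 and 0.0703). Of all genes, 21.3% were called lower with the correction and 19.8% with the block. MRPL45, whose protein contacts the inner membrane, had a log2 fold change of -0.25 (SE 0.28), and MRPL44 0.36 (SE 0.27).

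Large subunit genes with bacterial counterparts held 10 of the 14 large subunit genes that fell. The 14 of 51 were 27.5% of the large subunit, against 12.9% of all genes. Without control 1, control 3 and CYT 1 the number was 8 in each fit, without CYT 3 it was 9, and with the replicate block it was 25. MRPL28 had 134, 43.9 and 124 CPM in controls and 18, 13 and 29.6 CPM after CYT. Control 2 was far below the other controls but above every CYT library, and the log2 fold change was -2.32 (SE 0.49, adjusted p = 0.00719). MRPL16, a protein near the peptidyl transferase centre, had 90.4, 93.1 and 87.7 CPM in controls and 31.3, 30.0 and 27.9 CPM after CYT. The libraries lay close together within each group, with no overlap and a log2 fold change of -1.60 (SE 0.27, adjusted p = 0.00281). MRPL27, whose bacterial counterpart reaches towards the same centre and which belongs to the central protuberance group here, had 77.8, 94.0 and 95.0 CPM in controls and 34.1, 28.5 and 27.9 CPM after CYT. The groups were again apart, at -1.56 (SE 0.28, adjusted p = 0.00371). It was the 1 gene of the 8 in the central protuberance group that was called, and the median of that group was -0.30. With the replicate block MRPL38 (adjusted p = 0.0141) and MRPL55 (0.00744) were also called lower, and MRPL18 (0.0406) higher.

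MRPL4 had 222, 82.9 and 186 CPM in controls and 58.5, 38.5 and 72.6 CPM after CYT, with control 2 only a little above CYT 3. Its log2 fold change was -1.53 (SE 0.42, adjusted p = 0.0222), with adjusted p of 0.0823, 0.0738 and 0.0625 without control 1, control 3 and CYT 1. The correction for GC content and length described further on brought it to -0.84 (adjusted p = 0.0381), and with the replicate block as well to -0.86, where it was not called (adjusted p = 0.0725). MRPL1, a counterpart of the protein of the bacterial L1 stalk, had 57.8, 83.9 and 41.4 CPM in controls and 22.9, 25 and 29.3 CPM after CYT. Controls varied more than CYT libraries but did not reach them, and the log2 fold change was -1.25 (SE 0.34, adjusted p = 0.0217). MRPL9 (-1.08, SE 0.30, adjusted p = 0.0239) and MRPL21 (-0.91, SE 0.28, adjusted p = 0.0352) also fell with no overlap. Each of these 3 calls was lost in several fits with 1 library left out, and in those fits fewer of all genes were called lower as well. MRPL1 had an adjusted p of 0.0537 without control 1, 0.0704 without control 2, 0.0786 without CYT 1 and 0.0550 without CYT 3. MRPL9 had 0.0719 without control 1, 0.0998 without control 3, 0.0602 without CYT 1 and 0.0955 without CYT 3. MRPL21 had 0.0867 without control 1, 0.0639 without control 2, 0.124 without control 3, 0.104 without CYT 1 and 0.0745 without CYT 3, and missed the threshold with upper-quartile normalization (0.0638), at a mean of at least 5 CPM (0.0568) and with protein-coding genes only (0.0527) as well.

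Besides MRPL39, 3 more mitochondria-specific genes of the large subunit fell. MRPL58, also known as ICT1, is a peptidyl-tRNA hydrolase that frees stalled chains. It had 81.1, 72.3 and 92.5 CPM in controls and 33.8, 27.2 and 33.1 CPM after CYT, with the groups well apart (-1.38, SE 0.28, adjusted p = 0.00633). MRPL57 had 113, 97.3 and 120 CPM in controls and 44.6, 25.3 and 50.9 CPM after CYT. All CYT libraries were below all controls, and CYT 2 was the lowest (-1.45, SE 0.33, adjusted p = 0.0111). MRPS18A, which keeps a small subunit symbol but is built into the large subunit, had 94.8, 44.2 and 64.8 CPM in controls and 25.7, 9.82 and 27.3 CPM after CYT. Control 2 and CYT 2 were the lowest of their groups, which did not overlap (-1.70, SE 0.45, adjusted p = 0.0199). Without control 1 its adjusted p was 0.0752, and without control 3 it was 0.0521.

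In the small subunit 4 of 26 genes fell and 1 rose, or 15.4% lower against 12.9% of all genes. The number called lower was 7 without CYT 2 (17% of all genes), 9 with the replicate block (19.8%), 9 without both libraries numbered 2 (19.6%) and 10 with the correction for GC content and length (21.3%). MRPS34, a mitochondria-specific protein needed for small subunit stability, had 168, 136 and 240 CPM in controls and 45.8, 16.9 and 48.6 CPM after CYT. All CYT libraries were below all controls (-2.29, SE 0.44, adjusted p = 0.00496). MRPS18B, also mitochondria-specific, had 88.7, 92.1 and 90.3 CPM in controls and 32.9, 22.1 and 24.2 CPM after CYT. Its controls were nearly equal, and its adjusted p was the smallest among the 78 genes (-1.78, SE 0.29, adjusted p = 0.00262). MRPS26 had 117, 73.7 and 95.4 CPM in controls and 31.6, 26.3 and 35.8 CPM after CYT. It too showed no overlap (-1.61, SE 0.31, adjusted p = 0.00479). MRPS17, a counterpart of a bacterial small subunit protein, had 43.7, 42.4 and 48.0 CPM in controls and 23.3, 22.4 and 20.7 CPM after CYT, both groups tight and apart (-1.01, SE 0.27, adjusted p = 0.0211). It missed the threshold without control 1, control 3, CYT 1 and CYT 3, with adjusted p of 0.0604, 0.0834, 0.0658 and 0.0815.

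MRPS6, which neighbours the platform of the small subunit, was the 1 MRP gene that rose. It had 89.7, 90.2 and 92.8 CPM in controls and 207, 176 and 206 CPM after CYT. The controls lay within a coefficient of variation of 1.84%, the lowest of the 78 genes, and every CYT library was well above them. Its log2 fold change was 1.11 (SE 0.26, adjusted p = 0.0123), with an adjusted p of 0.0533 without control 1, 0.0627 without control 3 and 0.0529 without CYT 1. The genes next in size, MRPL34 at 0.99 (SE 0.59, adjusted p = 0.235) and MRPL32 at 0.79 (SE 0.42, adjusted p = 0.186), did not pass. MRPL34 had 42.2, 25.1 and 5.96 CPM after CYT against 8.43, 14.3 and 14.2 CPM in controls, so that CYT 3 was below every control. Without CYT 3 it was called (1.47, adjusted p = 0.0400). MRPL32 had 47.1, 129 and 64.1 CPM after CYT against 34.4, 43.1 and 61.6 CPM in controls, and its highest value was CYT 2 alone. MRPS21 (0.77, SE 0.28, adjusted p = 0.0639) and MRPL33 (0.68, SE 0.28, adjusted p = 0.0931) showed no overlap. Both were called higher with the replicate block (0.0289 and 0.0477) and without both libraries numbered 2 (0.0342 and 0.0339). Neither was called after the correction for GC content and length described further on (0.0503 and 0.108).

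**Figure D2:**
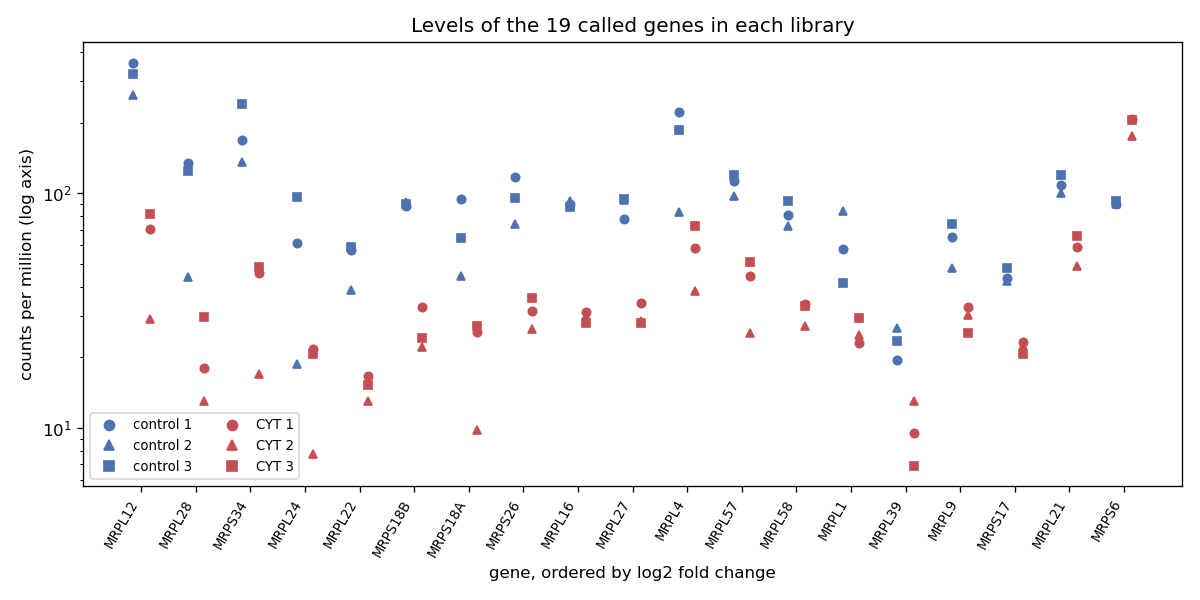
CPM on a log axis is plotted for the 19 called genes in every library, with controls in blue and CYT in red and a marker shape for each replicate number. The groups are apart in every gene shown but MRPL24, in which control 2 (18.7 CPM) lies among the CYT libraries.

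By the mean FPKM over all 6 libraries, the highest levels after MRPL12 belonged to MRPL41, MRPL14, MRPL37 and MRPS12. In controls alone MRPS26 (83.0 FPKM) was above MRPL37, and MRPS34 (65.5 FPKM) and MRPL54 (64.0 FPKM) were above MRPS12. MRPL41 had 170 ± 54.4 FPKM in controls and 120 ± 46.7 FPKM after CYT, and MRPL14 had 123 ± 30.0 and 93.1 ± 9.75 FPKM (SD, n = 3 libraries). MRPL37 had 69.1 ± 12.1 FPKM in controls and 80.0 ± 17.6 FPKM after CYT, and MRPS12, a counterpart of a bacterial decoding centre protein, had 59.8 ± 12.2 and 88.2 ± 26.9 FPKM. None of these 4 passed the test, with log2 fold changes of -0.51 (SE 0.41) for MRPL41, -0.41 (SE 0.29) for MRPL14, 0.20 (SE 0.32) for MRPL37 and 0.57 (SE 0.34) for MRPS12. MRPS12 had 326, 172 and 367 CPM after CYT against 160, 207 and 217 CPM in controls, and CYT 2 alone lay within the control range. Without CYT 2 it was called (0.82, adjusted p = 0.0322), as it was without both libraries numbered 2 (0.91, adjusted p = 0.0221). In controls MRPL12 thus stood above the other 4 on this scale, and after CYT it was below each of their means.

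FPKM divides by a length, and the length implied by count and FPKM equalled the summed length of all distinct annotated exons of GENCODE release 29 within 1 base in 77 of the 78 genes. Exon stretches shared between transcripts are then counted more than once, so that the implied length was a median of 1.52 times the merged exon length, and 5.47 times in MRPL55. Per kilobase of merged exon, a scale chosen after seeing the data, the same 5 genes were the highest by the mean over all 6 libraries, although in controls MRPS34 (165 CPM per kilobase) came after MRPL12 and MRPL41. MRPL12 had 307 ± 48.3 CPM per kilobase in controls and 58.9 ± 27.1 after CYT (SD, n = 3 libraries).

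Counts were then summed over each subunit. The 51 large subunit genes held 0.407%, 0.369% and 0.433% of all counts in controls and 0.295%, 0.289% and 0.287% after CYT. Every CYT library was below every control. The 26 small subunit genes held 0.190%, 0.215% and 0.213% in controls and 0.201%, 0.195% and 0.198% after CYT, and here the groups overlapped. The ratio of summed large to small subunit CPM was 2.14, 1.71 and 2.03 in controls and 1.47, 1.48 and 1.45 after CYT. In the test of single genes, the median log2 fold change was -0.72 in the large subunit and -0.18 in the small subunit, and the difference between the subunits was not tested. The medians were -0.57 against -0.033 with upper-quartile normalization and -0.65 against -0.29 without both libraries numbered 2. After the correction for GC content and length described further on they were closer, at -0.63 against -0.27. The median GC content was 50.7% in the large and 47.0% in the small subunit genes.

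**Figure D3:**
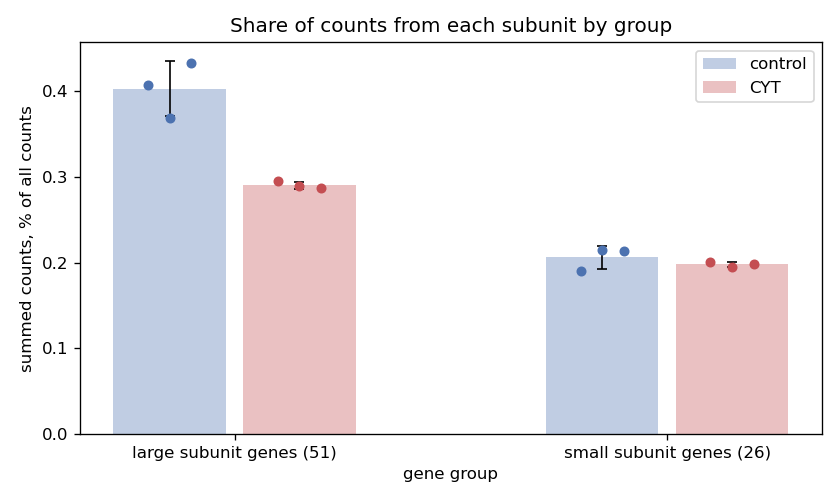
Bars give the mean share of all counts that came from large and small subunit genes, error bars the SD over 3 libraries, and points the single libraries. The large subunit share lies between 0.369% and 0.433% in controls and between 0.287% and 0.295% after CYT, while the small subunit shares overlap.

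Within the large subunit, the 30 genes with bacterial counterparts had a median of -0.86 and 10 of them fell (33.3%, against 12.9% of all genes), and the 21 mitochondria-specific genes had a median of -0.19 and 4 fell (19%). In the small subunit the order was the other way round, with a median of -0.053 over 16 genes with counterparts, of which 1 fell (6.25%), and -0.57 over 10 mitochondria-specific genes, of which 3 fell (30%). The first of these small subunit medians turned to 0.10 with upper-quartile normalization. MRPS36, which belongs to the oxoglutarate dehydrogenase complex and not to the ribosome, had 8.93, 30.2 and 10.4 CPM in controls and 14.5, 19.4 and 6.04 CPM after CYT. Its values were led by both libraries numbered 2, and it had the largest coefficient of variation among controls, 72.1%.

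The libraries numbered 2 also differed from the rest by base composition. Across the 78 genes, the deviation of CYT 2 from its group mean correlated with GC content at -0.693, and that of control 2 at -0.503, so GC-rich members were low in both. The other libraries had correlations from 0.105 to 0.492. These are descriptions across genes that share each library. The log2 fold change itself correlated with GC content at -0.414 over the 78 genes. The 26 genes of lowest GC content, from 33.5% to 43.8%, had a median of -0.05 and 3 fell. The 26 of highest GC content, from 52.2% to 71.9%, had a median of -0.92 and 9 fell. Of all genes, 12.9% fell. With the replicate block these counts were 9 and 16 (19.8% of all genes). Without both libraries numbered 2 they were 9 and 13 (19.6%). After correction of each library for GC content and length the correlation was -0.236, and the medians were -0.22 and -0.74. Then 9 genes of lowest and 14 of highest GC content were called lower. In this fit 33 of the 78 genes were called lower and 2 higher, against 21.3% and 24.5% of all genes. Of the 18 genes called lower, 17 were still called after the correction, and MRPL21 was not (adjusted p = 0.0514). With the replicate block in the same correction MRPL21 was called and MRPL4 was not (0.0725, or 0.0609 with the merged exon length). How far base composition bears on the single calls was not tested beyond this correction.

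**Figure D4:**
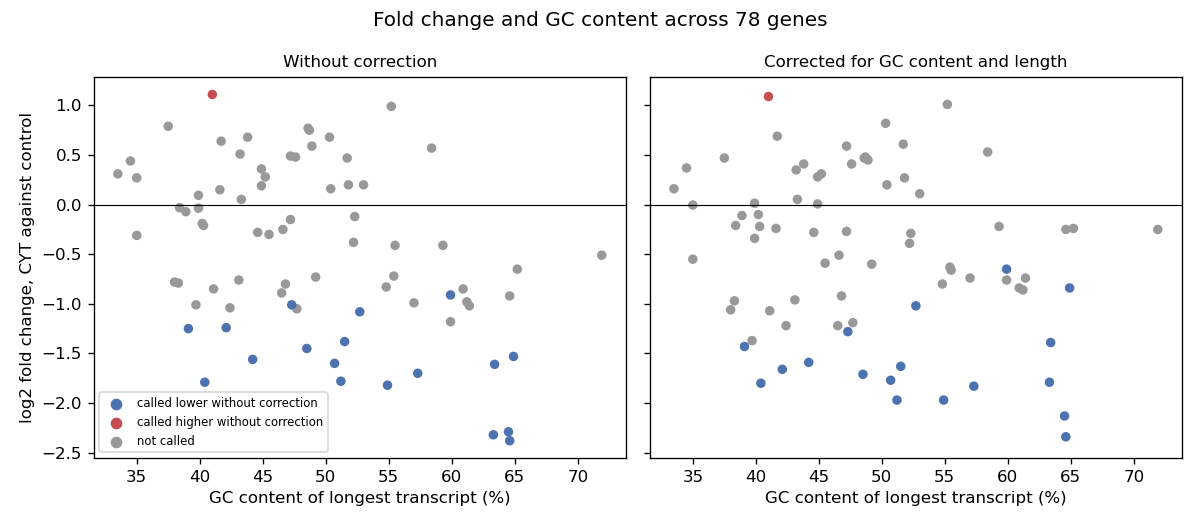
Each point is 1 of 78 MRP genes, with the GC content of its longest transcript on the horizontal axis and its log2 fold change after CYT on the vertical axis, before (left) and after (right) correction for GC content and length. The correlation across genes is -0.414 before and -0.236 after the correction.

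Several MRP genes share a promoter region or overlap other genes. For 17 of the 78, a protein-coding gene started within 1000 bases on the opposite strand in divergent orientation. MRPL46 and MRPS11 form such a pair between themselves, with starts 34 bases apart. MRPL46 had a log2 fold change of -0.19 (SE 0.35) and MRPS11 0.68 (SE 0.27, adjusted p = 0.0885). MRPS11 had 204, 180 and 224 CPM after CYT against 127, 144 and 109 CPM in controls, without overlap. It was called higher after the correction for GC content and length (0.82, adjusted p = 0.00803). The same held without both libraries numbered 2 (0.89, adjusted p = 0.0135). Of the 15 neighbours outside the family that were tested, 1 fell (12.9% of all genes did), 4 rose (15.7% of all genes did), and their median was 0.12. The 1 that fell was SKA3, a kinetochore gene that starts 43 bases from MRPL57, with 31.9, 39.0 and 25.5 CPM in controls and 11.2, 15.4 and 12.3 CPM after CYT (-1.31, SE 0.31, adjusted p = 0.0131). Both genes of that pair fell, although SKA3 missed the threshold without CYT 1 (0.0559) and without CYT 3 (0.0506). At MRPL27, MRPL21 and MRPS34 the neighbours EME1 (-0.43, SE 0.35), IGHMBP2 (-0.51, SE 0.34) and EME2 (-0.37, SE 0.71) were not called.

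Of the 78 genes, 48 overlapped another annotated gene, 22 on the same strand. The use of strand in counting is not given in the sources used here, so reads in shared stretches cannot be told apart. Among the 19 called genes, 4 overlapped a gene with more than 0.1 of their own mean level: MRPL9, MRPS17, MRPS18B and MRPS6. Next to MRPL12, the antisense gene AC139530.1 starts 57 bases away and rose from 12.2, 5.64 and 8.12 CPM in controls to 26.2, 14.6 and 41.2 CPM after CYT (1.66, SE 0.45, adjusted p = 0.0225). It was not called without control 2 (0.0694), control 3 (0.0837) and CYT 3 (0.0810).

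The other parts of mitochondrial translation were described from lists, to be read beside the 12.9% lower and 15.7% higher of all genes. Upper-quartile normalization raised the median of each list as it did that of all genes. Of 5 ribosome proteins with other symbols, none was called. In edgeR 1 of them, DAP3, had an unadjusted p under 0.05 (-0.69, SE 0.29, adjusted p = 0.101), and DESeq2 called 0. Of 26 assembly and rRNA modification factors, 7 fell and 1 rose, with a median of -0.52. TFB1M, which methylates the small subunit rRNA, had 16.6, 15.1 and 14.2 CPM in controls and 5.08, 2.63 and 2.78 CPM after CYT (-2.13, SE 0.37, adjusted p = 0.00328). MTG1, a GTPase of large subunit assembly, also fell (-1.93, SE 0.34, adjusted p = 0.00328). MRM2, a methyltransferase of the large subunit rRNA, rose from 24.4, 18.7 and 31.3 CPM to 64.4, 68.5 and 79.7 CPM (1.52, SE 0.31, adjusted p = 0.00629).

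The list of mitochondrial aminoacyl-tRNA synthetases had the largest share of lower genes among these lists, 8 of 22, with a median of -0.39. It also holds the amidotransferase genes GATB, GATC and QRSL1, none of which was called. TARS2, the threonine enzyme, had 101, 70.0 and 77.4 CPM in controls and 15.2, 6.98 and 13.5 CPM after CYT, and HARS2, the histidine enzyme, had 32.1, 42.3 and 33.9 CPM and then 6.70, 7.90 and 6.20 CPM. Neither showed overlap, and TARS2 was at -2.80 (SE 0.38, adjusted p = 0.00123) and HARS2 at -2.38 (SE 0.31, adjusted p = 0.00107). GARS, which serves the cytosol as well, was at -1.90 (SE 0.29, adjusted p = 0.00190). Of 16 translation factors, 2 fell (12.5%) and 1 rose (6.25%), with a median of 0.12, or 0.28 with upper-quartile normalization and 0.042 after the correction for GC content and length. The elongation factor gene TSFM was at -1.88 (SE 0.41, adjusted p = 0.00860), the recycling factor gene MRRF at -1.19 (SE 0.37, adjusted p = 0.0364) and the release factor gene MTRF1L at 1.19 (SE 0.35, adjusted p = 0.0294). The call of MRRF was lost without control 1 (0.0840), control 3 (0.125), CYT 1 (0.123) and CYT 3 (0.117), with upper-quartile normalization (0.0607), at a mean of at least 5 CPM (0.0579) and in both limma fits (0.0530 and 0.0558). That of MTRF1L was lost without control 1 (0.114), control 2 (0.0570) and control 3 (0.1).

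Of 6 genes for mitochondrial transcription, POLRMT, the RNA polymerase, fell. It had 313, 204 and 227 CPM in controls and 52.2, 15 and 48.1 CPM after CYT, without overlap (-2.69, SE 0.47, adjusted p = 0.00325). TFAM, which packages mitochondrial DNA, had a log2 fold change of 0.45 (SE 0.41). While POLRMT fell, the 2 mitochondrial rRNAs rose, MT-RNR1 at 2.30 (SE 0.59, adjusted p = 0.0177) and MT-RNR2 at 3.40 (SE 0.27, adjusted p = 0.000302). The call of MT-RNR1 was lost without control 1 (0.0669) and without CYT 1 (0.0550). The study's methods state that rRNA sequences were removed from the reads, so these values also depend on how complete that removal was in each library, which was not tested. Of 13 mitochondrial mRNAs, 2 were called higher, MT-ND6 (1.83, SE 0.52, adjusted p = 0.0277) and MT-ND5 (1.32, SE 0.44, adjusted p = 0.0497). In both CYT 2 lay inside the control range, with 153 CPM for MT-ND6 (controls 117 to 191) and 535 CPM for MT-ND5 (controls 464 to 676), so the groups overlapped. DESeq2 called 4 of the 13 higher, and 4 had an unadjusted p under 0.05 in edgeR. MT-ND6 lost its call without control 1 (0.0938), control 3 (0.103), CYT 1 (0.0893) and CYT 3 (0.0828), in both limma fits (0.0640 and 0.0601), and in the 4 fits corrected for GC content and length (0.0551 to 0.169). MT-ND5 lost it without control 1 (0.132), control 2 (0.0717), control 3 (0.155), CYT 1 (0.168) and CYT 3 (0.129), with the replicate block (0.0663), in both limma fits (0.0980 and 0.0940) and in the 4 corrected fits (0.0844 to 0.229).

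Of 10 regulators of mitochondrial biogenesis, 2 fell and 2 rose. NRF1, the factor for which the core above is named, had 33.7, 30.2 and 27.8 CPM in controls and 6.28, 7.05 and 5.56 CPM after CYT, tight and apart (-2.28, SE 0.31, adjusted p = 0.00120). GABPA, an ETS factor, had 8.68, 16.3 and 10.7 CPM in controls and 27.2, 83.8 and 30.4 CPM after CYT, led by CYT 2 (1.98, SE 0.49, adjusted p = 0.0146). Its partner GABPB2 was at 1.13 (SE 0.30, adjusted p = 0.0196), and YY1 at -0.042 (SE 0.28). Without control 1 and without control 3 the adjusted p was 0.0641 and 0.0645 for GABPA and 0.0771 and 0.0803 for GABPB2, which also lost its call without CYT 1 (0.0517) and without a filter (0.0510). PPRC1, a coactivator, was at -1.16 (SE 0.38, adjusted p = 0.0456). It was not called without control 1 (0.166), control 2 (0.0543), control 3 (0.0815), CYT 1 (0.0564) and CYT 3 (0.104). Nor was PPRC1 called with upper-quartile normalization (0.0683), at a mean of at least 5 CPM (0.0661) and with protein-coding genes only (0.0617). Of 14 protein quality control genes 4 fell, among them DNAJA3 (-1.75, SE 0.35, adjusted p = 0.00580), TRAP1 (-1.77, SE 0.39, adjusted p = 0.00889) and HSPA9 (-1.30, SE 0.29, adjusted p = 0.00906), all chaperones or their partners. DESeq2 called 6 of the 14 lower and 2 higher.

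For comparison, 1 of 79 cytosolic ribosomal protein genes fell and 1 rose, RPL17 (-1.19, SE 0.34, adjusted p = 0.0270) and RPL39 (1.47, SE 0.48, adjusted p = 0.0457), and their median was -0.14, or 0.0072 with upper-quartile normalization. DESeq2 called 3 lower and 4 higher. RPL17 lost its call without control 2 (0.0521), control 3 (0.113) and CYT 1 (0.0924). RPL39 lost it without control 1 (0.0692), control 3 (0.128), CYT 1 (0.0858), CYT 2 (0.0558) and CYT 3 (0.106), and with the correction for GC content and length (0.0502). Of 79 nuclear genes for respiratory chain subunits, 3 fell (3.80%) and 9 rose (11.4%), with a median of 0.25, or 0.40 with upper-quartile normalization. DESeq2 called 6 lower and 15 higher, and 15.1% and 18.8% of all genes. NDUFA2 of complex I had 49.8, 104 and 94.0 CPM in controls and 271, 268 and 316 CPM after CYT (1.79, SE 0.34, adjusted p = 0.00450). UQCRQ of complex III was at 1.13 (SE 0.26, adjusted p = 0.0103), and NDUFV2 of complex I at -1.25 (SE 0.31, adjusted p = 0.0159), a call lost without control 3 (0.0793) and CYT 3 (0.0646). The difference between the MRP genes and these lists was not tested.

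**Figure D5:**
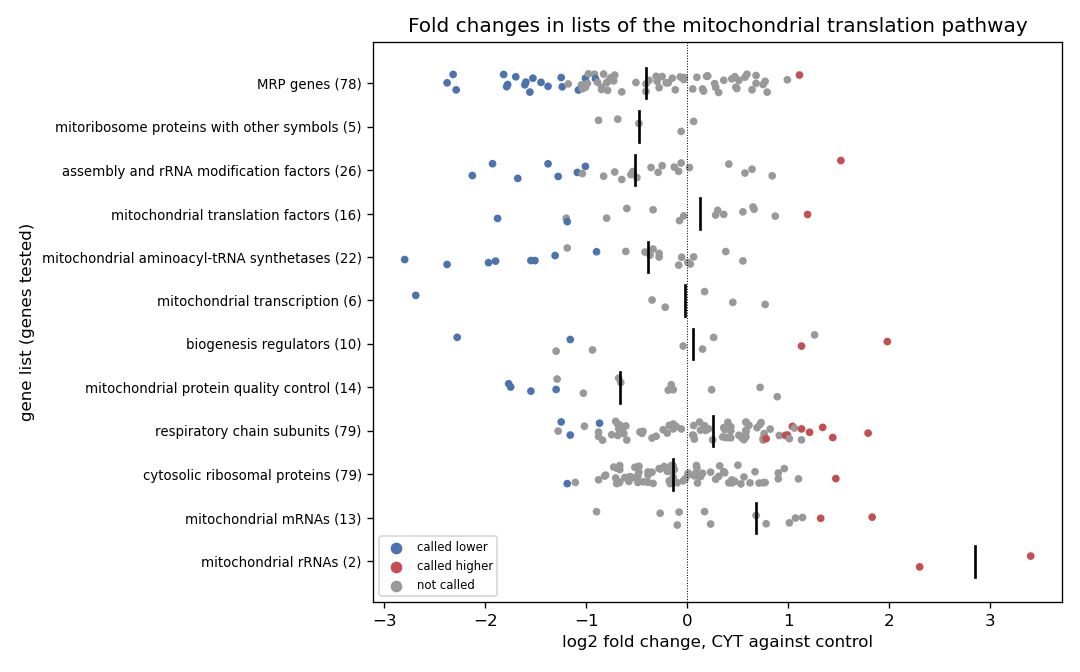
Each point is the log2 fold change of 1 gene after CYT, in lists with the number of genes tested in brackets, and the black bar is the median of the list. Blue points were called lower and red points higher. The medians run from -0.67 for mitochondrial protein quality control to 2.85 for the 2 mitochondrial rRNAs, and that of the MRP genes is -0.41.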

How the data were processed

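RNA from 3 control and 3 CYT-treated MDA-MB-231-DR samples was sequenced, and libraries were grouped by their labels. The authors separated mRNA, removed low-quality, adapter and rRNA reads and aligned clean reads with Hisat2 to hg38, and the submitters' processing notes name FastQC 0.12.1. They deposited a raw count and an FPKM value per gene and library. The methods name Stringtie for FPKM and software called edge for quantification. Which program counted the reads, and whether strand was used, is not given in the sources used here. The test was that of edgeR 4.0.16, run on the counts in R 4.3.3 (TMM, filterByExpr with a minimum count of 10, quasi-likelihood, Benjamini-Hochberg over 15572 genes), and it was tried on simulated data. CPM values are TMM-normalized. Annotation came from GENCODE release 29. Alternatives used DESeq2 1.42.0, limma 3.58.1, upper-quartile normalization, other filters, protein-coding genes alone, a replicate block, a correction for GC content and length, and leaving out libraries. Without both libraries numbered 2, and the merged exon length in place of the implied length in that correction, were chosen after seeing the data, the second after the correction had been run once with the implied length.

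Same-numbered libraries deviated together from their group means, with correlations across genes of 0.188, 0.458 and 0.124. All are over 0.1, but control 1 with CYT 3 (0.303) and control 3 with CYT 1 (0.201) were higher than pairs 1 and 3. Of the same-numbered pairs, only that of the libraries numbered 2 exceeded its cross pairs. The study names no pairing, so the main test had no block, and the replicate block is an alternative. Named genes were all called MRP genes, the 5 of highest mean FPKM, the 3 largest and 3 smallest fold changes, and the 3 called genes of smallest adjusted p in each other list. Genes named beside these, such as MRPL44, MRPL45, MRPS11, MRPL46, MRPS36, SKA3, EME1, EME2, IGHMBP2, AC139530.1, DAP3, TFAM, YY1 and PPRC1, were chosen after their values were seen. The members and lists were chosen with earlier results of these data known.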

Additional observations from a re-analysis of the deposited data

How the results depend on the processing

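Of the 18 MRP genes called lower, 10 were called lower in all 19 alternatives run, 8 lost the call in at least 1, and none changed direction. The number called lower was 34 with the replicate block, 33 with the GC content and length correction and 32 with that correction and the block. With the merged exon length in the correction it was 34, and 33 with the block. Of all genes, 19.8% were called lower with the block and from 20.9% to 21.3% in the 4 corrected fits, against 12.9% in the main fit. The number of MRP genes called lower was 31 without both libraries numbered 2, and from 11 to 24 when 1 library was left out. The number called higher was 5 with upper-quartile normalization, with DESeq2 and without both libraries numbered 2, and 4 with the replicate block, where 18.5%, 18.8%, 21.5% and 20% of all genes were called higher, against 15.7% in the main fit. It was 2 with a mean of at least 5 CPM, in both limma fits, with protein-coding genes only and with the GC content and length correction in both forms, and 3 with the merged exon length in both forms. Of all genes, from 12.8% to 15.7% were called higher in the first 4 of these fits and from 24% to 24.5% in the corrected fits. Leaving out 1 library gave from 0 to 4. For the median log2 fold change, upper-quartile normalization gave -0.26, the filter at 5 CPM gave -0.30, and the merged exon length with the replicate block gave -0.52. Leaving out 1 library gave medians between -0.51 and -0.41. Why these fits differ, that is, the cause, was not tested. With an absolute log2 fold change over 1 as well, 17 genes were lower and 1 higher. Added to the main fit, the block ended no call of an MRP gene, and of the other genes named it ended that of MT-ND5. Among the genes named by rule, the block added to the correction for GC content and length ended the call of MRPL4 with either length. With the implied length MRPL14, MRPL21 and RPL39 were called only with the block. Further MRP genes, not followed here, also lost their calls, since the number called lower went from 33 to 32. The other named genes that were called in the main fit kept their calls when the block was added to it.

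With 3 libraries per group, genes whose libraries vary by a coefficient of variation near the median of 20.9% in controls and 26.6% after CYT can pass or miss the threshold by 1 library. A gene that was not called is not shown to be equal between the groups. CPM is a share of a library, so less of a transcript per cell and fewer cells that hold it cannot be told apart in bulk RNA. Proteins, ribosome assembly and translation were not measured here.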

Other observations

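Of the 75 annotated MRP pseudogenes in the table, 2 passed the filter on low counts. MRPL45P2 had 3.10, 3.25 and 2.59 CPM in controls and 3.24, 4.48 and 3.58 CPM after CYT, and MRPS31P4 had 0.620, 0.799 and 1.44 CPM and then 0.776, 0.214 and 0.636 CPM. In both the groups overlapped. Their levels were low beside those of most MRP genes, so reads assigned to pseudogenes were few, and how reads with several matches were treated is not given in the sources used here.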
